A study of Mus musculus with 57 samples.

Results

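The placental cathepsin gene cluster of the mouse was followed through single embryos of 3 lines. Its 9 genes, Cts3, Cts6, Cts7, Cts8, Ctsj, Ctsm, Ctsq, Ctsr and Ctsll3, were taken by symbol, and all 9 are among the 56557 genes of the deposited table. Each embryo gave 1 RNA sequencing library, and the 57 libraries form 5 sets. The main comparison is in Taf12 outgrowths, which are blastocysts taken at embryonic day (E) 3.5 and cultured one by one for 72 h in serum-containing medium (MUT n = 4, HET n = 3, WT n = 4). E6.5 embryos came from the Taf13 line (MUT n = 2, HET n = 9, WT n = 4). E3.5 blastocysts came from the Taf5 line (MUT n = 4, WT n = 3), the Taf12 line (MUT n = 3, HET n = 5, WT n = 5) and the Taf13 line (MUT n = 3, HET n = 4, WT n = 4). No embryo had a treatment besides its culture. The labels give the genotypes as MUT, HET or WT without describing the alleles, the strain or the litters. The p-values below therefore speak of the variation among these embryos alone.

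Cathepsins of the papain family are cysteine proteases that are made as inactive proenzymes and act mainly in lysosomes. In rodents, repeated duplication of an ancestral gene close to cathepsin L gave a cluster whose members are expressed mostly in the placenta, in trophoblast cells. Cts7 and Cts8 are known from trophoblast giant cells, the large polyploid cells that outgrowth cultures form from the trophectoderm, and Ctsq marks the giant cells that line the maternal blood sinusoids later in pregnancy. Taf12 encodes a subunit that the general transcription factor TFIID shares with the coactivator SAGA. Taf5 and Taf13 encode TFIID subunits, and TFIID recognises core promoters, among them those with a TATA box.

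In chromosome order the cluster begins with Ctsll3, goes on after a gap of other genes with Ctsj, Ctsq, Ctsr, Cts6, Cts8 and Cts7, and ends with Ctsm and Cts3. The promoters of the genes on which the results turn are printed because Ctsll3 was higher, and Cts8 and Cts7 lower, in MUT than in WT outgrowths. They are taken from RefSeq on GRCm38.p6, whereas the files use GRCm39. Each runs 5′ to 3′ on the minus strand of chromosome 13, from 250 bases before to 50 bases after the annotated start. Ctsll3 lies at chr13:60802795-60803094 and its neighbour BC051665, which is no member, at chr13:60786315-60786614. Cts8 lies at chr13:61255299-61255598, Cts7 at chr13:61358147-61358446 and Ctsq at chr13:61040548-61040847. Capitals mark the words TATAAA and TTTAAA where they start 45 to 20 bases before the annotated start, a window chosen after the sequences were seen.
BC051665: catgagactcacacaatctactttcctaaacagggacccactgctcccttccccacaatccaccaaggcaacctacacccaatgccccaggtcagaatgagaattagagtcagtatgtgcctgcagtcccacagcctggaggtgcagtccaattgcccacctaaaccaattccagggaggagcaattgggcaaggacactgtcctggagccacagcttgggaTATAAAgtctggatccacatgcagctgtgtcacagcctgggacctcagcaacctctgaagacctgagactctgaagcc
Ctsll3: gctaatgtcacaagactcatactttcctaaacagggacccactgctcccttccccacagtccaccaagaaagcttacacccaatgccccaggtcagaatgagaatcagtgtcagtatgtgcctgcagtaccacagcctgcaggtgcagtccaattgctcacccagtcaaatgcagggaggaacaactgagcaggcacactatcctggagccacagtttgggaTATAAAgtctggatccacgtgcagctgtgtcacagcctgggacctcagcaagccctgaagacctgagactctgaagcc
Cts8: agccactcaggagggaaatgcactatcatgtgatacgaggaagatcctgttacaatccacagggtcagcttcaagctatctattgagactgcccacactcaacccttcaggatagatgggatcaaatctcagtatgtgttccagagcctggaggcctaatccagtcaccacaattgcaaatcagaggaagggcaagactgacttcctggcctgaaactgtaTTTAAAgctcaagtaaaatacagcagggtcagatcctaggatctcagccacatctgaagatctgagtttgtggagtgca
Cts7: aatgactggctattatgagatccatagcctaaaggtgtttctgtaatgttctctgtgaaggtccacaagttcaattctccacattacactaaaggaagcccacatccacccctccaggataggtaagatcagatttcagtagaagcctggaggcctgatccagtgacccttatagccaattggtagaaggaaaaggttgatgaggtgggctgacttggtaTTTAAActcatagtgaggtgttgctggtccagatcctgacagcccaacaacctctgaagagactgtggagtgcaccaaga
Ctsq: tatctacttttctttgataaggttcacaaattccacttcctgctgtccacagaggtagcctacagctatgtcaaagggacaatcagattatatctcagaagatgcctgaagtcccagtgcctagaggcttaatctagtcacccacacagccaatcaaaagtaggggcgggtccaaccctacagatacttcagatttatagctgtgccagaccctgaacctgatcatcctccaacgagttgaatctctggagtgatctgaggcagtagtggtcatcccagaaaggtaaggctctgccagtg
Ctsll3 and BC051665 carry TATAAA at position −28, counted back from the start. Cts8 carries TTTAAA at −29 and Cts7 carries TTTAAA at −30, while the Ctsq promoter holds neither word in the window. Over the cluster, TATAAA stood in the window of 3 of 9 promoters (Ctsll3, Ctsm and Cts3) and TTTAAA in 6 of 9 (Ctsj, Ctsr, Cts8, Cts7, Ctsm and Cts3). Searched on both strands, the window held TATAAA in 2.75% and TTTAAA, which reads the same on both strands, in 1.66% of 32851 RefSeq promoters of the same length. These are matches of letters and were not tested as binding sites. TTTAAA lies at −45 in Ctsr, at the edge of the window, and at −48 in Cts6, just outside it. The 9 promoters belong to duplicated genes and are not independent, so no enrichment is read from these shares.

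The members are paralogs, and reads of near-identical stretches could be assigned to the wrong gene. Over 36 pairs, the coding sequences were 66.1 to 89.7% identical, with a median of 72.0%. Cts7 and Ctsll3 were 66.1% identical, and Cts7 and Cts8 were 72.3%. In GENCODE M21 transcripts on GRCm38, no stretch of 76 bases, the read length, of Cts7, Ctsq, Ctsj, Ctsr, Cts6, Ctsll3 or BC051665 occurred in a transcript of another gene. Such stretches made up 20.7% of the Ctsm transcript and 6.07% of the Cts3 transcript, shared between these genes and related models. In Cts8 they made up 50.3%, nearly all in the overlapping model Gm49398, which had 0 reads in every outgrowth. By this search Cts8, Ctsm and Cts3 are the uncertain ones. It looked for exact matches only, on another build than that of the files. Wrongly assigned reads with mismatches can therefore not be excluded for the other genes. Among these, Ctsll3 and BC051665 were 88.1% identical in coding sequence.

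Libraries held 7.81 to 12.1 M recovered reads at E3.5, 4.57 to 12.6 M in outgrowths and 18.4 to 21.5 M at E6.5 (M for mega). The shallowest was the outgrowth library MUT 3. A count of 0 allows up to 3 reads, 0.239 to 0.657 reads per M recovered reads (RPM) in outgrowths and 0.139 to 0.163 at E6.5. Taf12 itself stood at 51.8 to 53.7 FPKM (fragments per kilobase per M fragments) in outgrowths labelled MUT, against 15.6 to 24.03 FPKM in HET and 18.6 to 27.02 FPKM in WT. Taf12 RNA was thus higher, not lower, in MUT, and the labels are not checked by it. The allele is not described, so a gene-level value cannot show whether a deleted stretch was read, and below MUT stands for outgrowths labelled MUT. Mitochondrially encoded transcripts took 1.45 to 2.16% of reads in MUT outgrowths and 0.949 to 1.33% in WT outgrowths.

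Whether outgrowths labelled Taf12 MUT express the cluster differently from WT was asked for the 4 members that reached FPKM 1 in at least 3 of the 11 libraries, Cts7, Cts8, Ctsq and Ctsll3. Cts7, which took 73.0 to 98.1% of the members' reads in WT, was almost absent from MUT, and Cts8 fell with it. Ctsll3, low or variable in WT, was high in all 4 MUT libraries. With limma on log2(FPKM + 1) and Benjamini-Hochberg adjustment over all 13068 genes tested, 1 of the 4 members was higher in MUT and 2 were lower, where 18% of all genes tested were called higher, 19.9% lower and 37.9% in either direction at an adjusted p under 0.05. The median log2 difference of all genes tested was −0.05.

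Cts7 had 1, 0, 10 and 5 reads in MUT 1 to 4, which is 0.0327, 0, 0.749 and 0.161 FPKM. In HET it was at 577, 958 and 1077 FPKM, and in WT at 1093, 843, 999 and 636 FPKM. No MUT library came near the lowest HET or WT library, and HET and WT overlapped. The means were 0.236 ± 0.349 FPKM in MUT, 871 ± 261 in HET and 893 ± 200 in WT (SD). The MUT mean was 3788.5-fold below WT, but it rests on 16 reads, 10 of them in MUT 3. Without MUT 3 the ratio was 13838-fold, and that of the medians was 9517.3-fold, so its size is poorly fixed. The log2 difference between MUT and WT was −9.51 (SE 0.26, limma adjusted p = 2.168e-08), the lowest of all 13068 genes tested. It was −11.88 with a pseudocount of 0.1 and −13.27 with voom on the recovered reads. The rank was taken on log2(FPKM + 1) only, where a gene's FPKM level limits how low its difference can be.

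Cts8 was at 0.745, 0.0284, 0.710 and 3.17 FPKM in MUT 1 to 4, from 24, 1, 10 and 104 reads. It was at 11.8, 14.9 and 15.4 FPKM in HET and at 17.8, 12.8, 18.4 and 21.3 FPKM in WT. All MUT libraries lay below all HET and WT libraries. The log2 difference between MUT and WT was −3.28 (SE 0.37, adjusted p = 0.0001203), and the means, 1.16 ± 1.38 FPKM in MUT and 17.6 ± 3.53 FPKM in WT (SD, n = 4 each), differed 15.1-fold, or 35.6-fold without MUT 4.

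Ctsll3, a cathepsin L-like gene and the first member in chromosome order, was at 20129, 18092, 25541 and 19555 FPKM in MUT 1 to 4. It was at 779, 857 and 51.2 FPKM in HET and at 1009, 27.6, 6867 and 29.6 FPKM in WT. MUT libraries lay close together, WT libraries were widely spread, and the highest WT library stayed below the lowest MUT library. The log2 difference was 6.21 (SE 1.64, adjusted p = 0.01298), with means of 20829 ± 3256 FPKM in MUT and 1983 ± 3288 FPKM in WT (SD, n = 4 each). With a single library left out it lay between 5.11 (WT 2 omitted) and 7.75 (WT 3 omitted) and was still called each time.

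Ctsq was at 30.8, 0, 58.6 and 132 FPKM in MUT 1 to 4, from 130, 0, 108 and 567 reads. It was at 6.09, 4.45 and 3.98 FPKM in HET and at 11.1, 7.03, 2.98 and 6.14 FPKM in WT. MUT 1, MUT 3 and MUT 4 lay above all others and MUT 2 below them, so the groups overlapped. The log2 difference was 1.63 (SE 1.21, adjusted p = 0.3178) and did not pass, but without MUT 2 it was 3.12 (adjusted p = 0.001281). The authors' deposited table, which sets MUT against WT and HET together, gives Ctsq a log2 fold change of 3.21 with an adjusted p of 0.000563. In the authors' deposited table the log2 fold changes of Cts7, Cts8 and Ctsll3 are −12.04, −3.78 and 3.94, each with an adjusted p under 0.05.

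**Figure D1:**
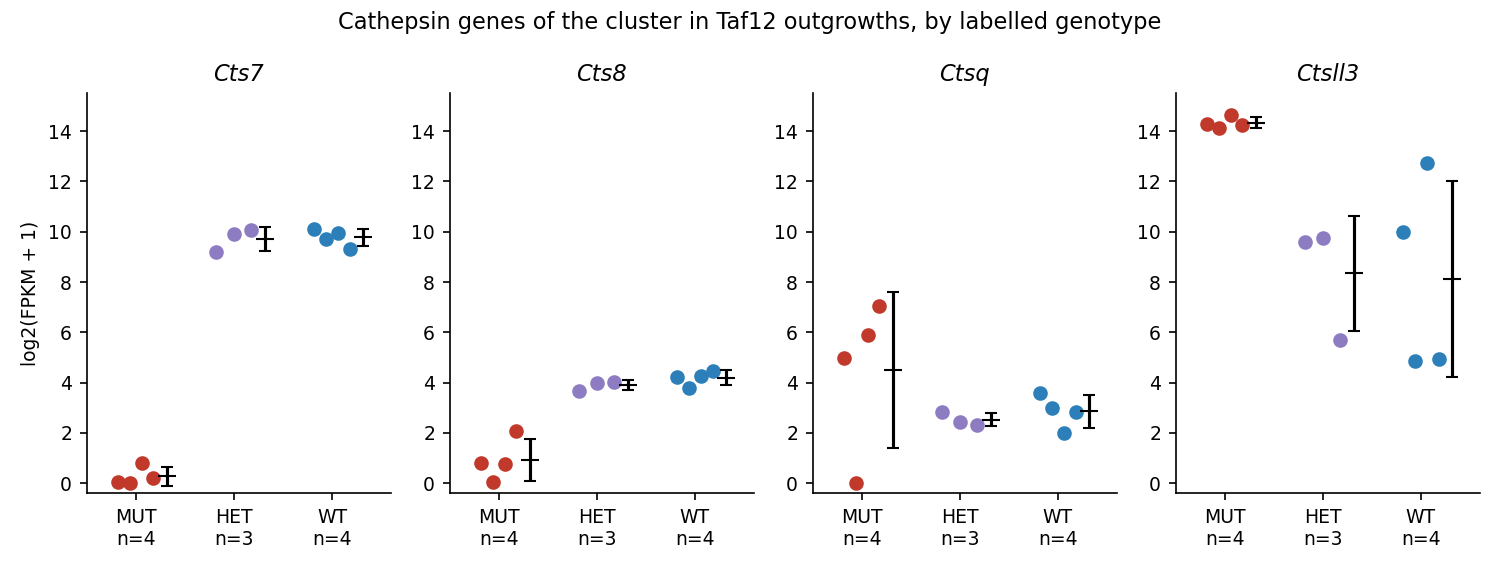
Level of the 4 tested members in Taf12 outgrowths as log2(FPKM + 1), with 1 point per library in groups MUT, HET and WT and the mean ± SD beside each group. Cts7 and Cts8 are lower in all 4 MUT libraries than in any HET or WT library, Ctsll3 is higher in all 4, and Ctsq is split, with MUT 2 at 0.

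The other 5 members gave few reads or none in outgrowths. Ctsj had 9 reads in MUT 1 and 17 reads in WT 4. Ctsr had 6 reads in HET 3, 2 in WT 2 and 4 in WT 4, and Cts6 had 1 read in MUT 2. Ctsm and Cts3 had 0 reads in all 11 libraries, so levels under the floor given above were not detectable.

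Set against each other per length, the members changed places while their sum did not move beyond its spread. FPKM cannot be used for this, because the deposited values imply lengths of 149 bases for Ctsll3 and 2931 bases for Cts7, against GENCODE transcripts of 1337 and 1518 bases. RPM values were therefore divided by the GENCODE transcript length in kilobases. The 9 members together came to 2319, 1978, 2863 and 2143 in MUT 1 to 4, with a mean of 2326 ± 384, against 1267, 2000 and 2182 in HET, with a mean of 1816 ± 485, and 2325, 1768, 2869 and 1273 in WT, with a mean of 2059 ± 690 (SD). The ranges overlapped. No test was made of this sum. It covers the 9 members only and leaves out BC051665, the neighbour of Ctsll3. BC051665 stood at 2563 to 7521 RPM in MUT, 2.90 to 85.5 in HET and 0.557 to 613 in WT. The sum therefore does not describe all cathepsin-like genes at this locus.

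Ctsll3 made up 99.5, 99.995, 99.3 and 98.1% of the members' sum per length in MUT 1 to 4. It made up 7.13, 4.87 and 0.271% in HET and 5.01, 0.187, 28.2 and 0.262% in WT. Cts7 made up 0.00280, 0, 0.0504 and 0.0140% in MUT, 91.5, 94.1 and 98.8% in HET, and 93.9, 98.7, 70.9 and 97.4% in WT. WT 3, the library with the highest Ctsll3, thus still had mostly Cts7. Counted as plain shares of the members' reads, Ctsll3 took 97.9% in MUT 4, the lowest MUT library (95% Wilson interval 97.7 to 98.0%, counting error only), and 25.5% in WT 3, the highest WT library (25.2 to 25.9%).

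**Figure D2:**
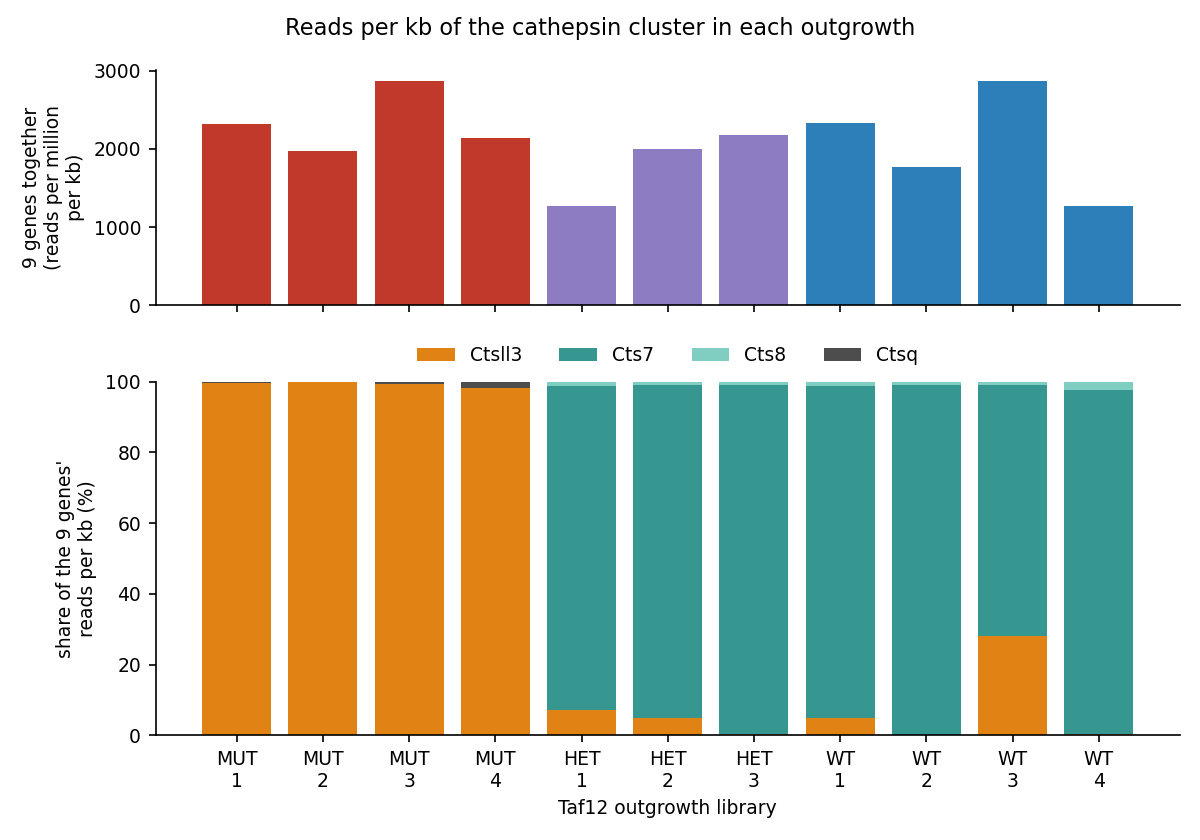
Upper panel: RPM per kb of transcript summed over the 9 members in each Taf12 outgrowth. Lower panel: the share of Ctsll3, Cts7, Cts8 and Ctsq in that sum, in percent. The sums overlap between MUT (1978 to 2863) and WT (1273 to 2869), while the bars are nearly all Ctsll3 in MUT and mostly Cts7 in HET and WT.

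HET outgrowths were compared with WT as the second contrast among these outgrowths. None of the 4 members was called in HET against WT by limma, with 0 at an unadjusted p under 0.05 and 0 by voom on the recovered reads, where 0.0306% of all genes were called. The log2 differences between HET and WT were −0.06 (SE 0.28) for Cts7, −0.29 (SE 0.40) for Cts8, −0.33 (SE 1.31) for Ctsq and 0.23 (SE 1.77) for Ctsll3, with adjusted p = 1 for each. The standard errors of Ctsq and Ctsll3 leave room for several-fold differences. Between MUT and HET, 1 member was higher and 2 were lower, where 35.7% of all genes were called. The differences were −9.45 for Cts7 (adjusted p = 5.16e-08), −2.98 for Cts8 (adjusted p = 0.0003684) and 5.98 for Ctsll3 (adjusted p = 0.0233), and 1.96 for Ctsq (adjusted p = 0.271). The call of Ctsll3 against HET was lost without HET 3 (log2 difference 4.66, adjusted p = 0.09844). These comparisons share the MUT or WT libraries with the one above.

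The genes between and beside the members were taken from the RefSeq order. Of these 15 neighbours, 12 are in the deposited table, 5 were tested, 1 was higher and 1 was lower in MUT. Over all genes tested, 37.9% were called in either direction. BC051665, the gene beside Ctsll3, has a coding sequence 88.1% identical to that of Ctsll3 and 66.2 to 69.8% identical to those of the other members. It was at 7390, 16610, 14750 and 23137 FPKM in MUT 1 to 4, at 102, 249 and 8.29 FPKM in HET and at 377, 25.9, 1722 and 1.64 FPKM in WT. All MUT libraries lay above all others, and WT 3 and WT 1 were the highest of WT for both genes. The log2 difference of BC051665 was 7.44 (SE 1.76, adjusted p = 0.007491), and leaving out 1 library gave 5.78 (without WT 4) to 8.90 (without WT 3), each called.

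Cts7-ps, a pseudogene next to Cts7, had 0 reads in every MUT library and was at 4.60 to 7.02 FPKM in HET and 3.96 to 8.69 FPKM in WT. Taking 3 reads per MUT library as the floor, it was at least 43.8-fold lower in MUT than in WT (log2 difference −2.77, SE 0.25, adjusted p = 3.216e-05). In WT 1 to 4 it had 122, 172, 274 and 153 reads, beside 36311, 25191, 33958 and 20275 reads of Cts7. Its identity to Cts7 was not measured, and whether its reads came from Cts7 transcripts was not tested. Between the ends of the cluster lie Ctla2a and Ctla2b, which encode inhibitors resembling a cathepsin propeptide, and Tpbpa, a marker of the ectoplacental cone and spongiotrophoblast. Tpbpa was at 0 to 5.98 FPKM in MUT and 0 to 9.55 FPKM in WT (adjusted p = 0.6373). Ctla2a was at 0.693 to 7.53 FPKM in MUT and 2.40 to 11.04 FPKM in WT (adjusted p = 0.4436), and Ctla2b at 0 to 1.86 FPKM in MUT and 0.747 to 3.89 FPKM in WT (adjusted p = 0.1993). None of these 3 passed.

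**Figure D3:**
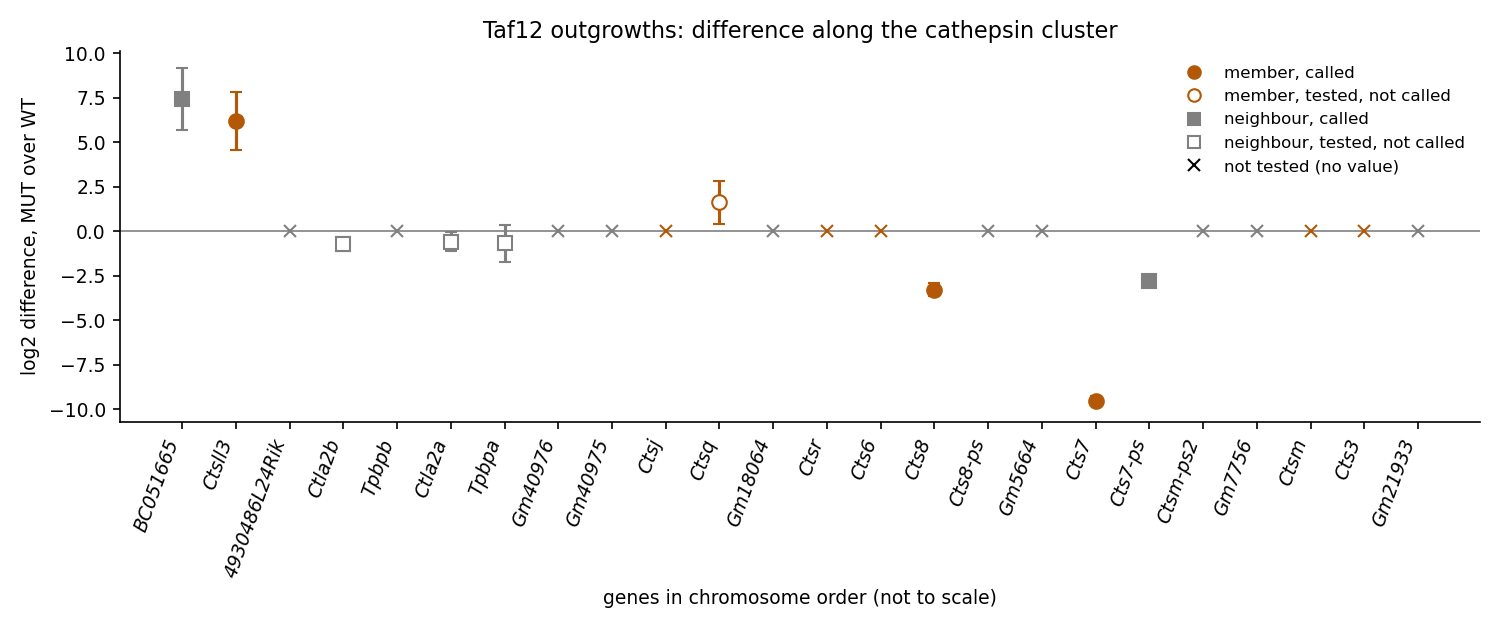
Log2 difference between MUT and WT in Taf12 outgrowths (points, with SE bars) for members and neighbours in chromosome order, spaced evenly. Filled symbols are called, open ones tested and not called, and crosses mark genes too low to test or not in the table. BC051665 (7.44) and Ctsll3 (6.21) at the left end are higher. Cts8 (−3.28), Cts7 (−9.51) and Cts7-ps (−2.77), further right, are lower.

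Lysosomal cathepsins encoded elsewhere in the genome also differed, in both directions, where 37.9% of all genes tested were called. Of 13 in the table, 8 were tested, 2 were higher and 4 were lower in MUT, with a median log2 difference of −0.76. Ctsc, the dipeptidyl peptidase that activates serine proteases, averaged 2901 ± 1332 FPKM in MUT and 496 ± 226 FPKM in WT (log2 difference 2.55, adjusted p = 0.0008151). Ctsb, a widely expressed cysteine cathepsin, averaged 793 ± 248 FPKM in MUT and 2122 ± 740 FPKM in WT (−1.41, adjusted p = 0.002126). Ctsd, the main aspartic protease of lysosomes, averaged 848 ± 94.1 FPKM in MUT and 2395 ± 525 FPKM in WT (−1.47, adjusted p = 0.0001168), and Ctsz averaged 112 ± 35.4 FPKM in MUT and 339 ± 62.7 FPKM in WT (−1.63, adjusted p = 0.0003066; SD, n = 4 each). Ctsl, the closest relative of the cluster outside it, was at 436 to 912 FPKM in MUT and 386 to 1015 FPKM in WT, overlapping.

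Of 14 cystatins and other cathepsin inhibitors, 6 were tested and 2 were higher in MUT, with a median log2 difference of 0.36. Among all genes tested, 18% were called higher and 19.9% lower. Cst6, cystatin E/M, averaged 20.7 ± 7.91 FPKM in MUT and 3.01 ± 2.81 FPKM in WT (2.67, adjusted p = 0.003392). Cstb, the cytosolic stefin B, averaged 281 ± 72.3 FPKM in MUT and 149 ± 8.92 FPKM in WT (0.87, adjusted p = 0.003682). Of 14 genes of lysosome biogenesis and proenzyme sorting, 13 were tested, 3 were higher and 2 were lower, with a median of 0.17. Among them, and named here after their values were seen, Lgmn, the asparaginyl endopeptidase that cuts cathepsin chains, averaged 202 ± 56.4 FPKM in MUT and 868 ± 203 FPKM in WT (−2.12, adjusted p = 0.0001217). Psap, the precursor of the saposins, averaged 49324 ± 23779 FPKM in MUT and 3883 ± 547 FPKM in WT (3.54, adjusted p = 3.167e-05; SD, n = 4 each).

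Trophoblast genes were looked at because the members are expressed in trophoblast. The counts of each list stand against 37.9% of all genes tested, called in either direction. An outgrowth is a mixed bulk sample, in which fewer cells of a type and less RNA per cell cannot be told apart. Of 15 trophoblast giant cell genes, 13 were tested, 3 were higher and 2 were lower in MUT (median 0.39). Their summed level was 18460 to 39550 RPM in MUT and 37530 to 50770 in WT. Prl3d1, Prl3d2 and Prl3d3 had the most reads of this list, 2301746, 788519 and 510950 over all outgrowths, and so weigh most in the sum. Prl3b1 was at 0 reads in all libraries of both groups and Nos3 in all of MUT. Prl3d1, placental lactogen I, was 2.31-fold lower (9017 ± 4524 FPKM in MUT, 20780 ± 5052 FPKM in WT, adjusted p = 0.01326) and Prl4a1 was 14.3-fold lower, or 21.5-fold without MUT 3 (133 ± 128 FPKM in MUT, 1897 ± 1125 FPKM in WT, adjusted p = 0.009228). Prl2c5, of the proliferin family, was 5.98-fold higher (13873 ± 6246 FPKM in MUT, 2320 ± 2140 FPKM in WT, adjusted p = 0.007405), and Plac1 was 2.24-fold higher (605 ± 84.9 FPKM in MUT, 270 ± 66.6 FPKM in WT, adjusted p = 0.0008902; SD, n = 4 each). Whether the number of giant cells had a part in the members' differences was not tested.

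Genes of other trophoblast states differed in both directions as well, where 37.9% of all genes tested were called. Of 10 spongiotrophoblast and ectoplacental cone genes, 7 were tested, 1 was higher and 2 were lower (median −0.68), with a summed level of 4402 to 7469 RPM in MUT and 1933 to 2705 in WT. Phlda2, an imprinted growth regulator, had the most reads of this list, 250135 over all outgrowths, and so weighs most in the sum. It was 10.8-fold higher in MUT (adjusted p = 2.642e-05). Prl5a1 was 14.4-fold lower (adjusted p = 7.18e-05) and Car2, a carbonic anhydrase, was 24.3-fold lower (adjusted p = 3.275e-05). Tpbpb, Prl8a8 and Prl7b1 were at 0 reads in every outgrowth. Of 10 trophectoderm epithelium genes, all tested, 6 were higher and 1 was lower (median 0.80), with a summed level of 36140 to 43320 RPM in MUT and 7976 to 13360 in WT. The keratin genes Krt8 and Krt18, the tight junction gene Cldn4 and the transcription factor gene Tfap2a were 5.02-fold, 4.19-fold, 4.01-fold and 2.49-fold higher in MUT (adjusted p = 0.0002058, 0.00011, 0.004372 and 0.001542).

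Of 10 trophoblast stem cell and extraembryonic ectoderm genes, 9 were tested, 2 were higher and 2 were lower (median 0.30). Over all genes tested, 37.9% were called. The summed level of this list was 2126 to 2407 RPM in MUT and 2322 to 2608 in WT. Fgfr2, the receptor of a growth factor that maintains trophoblast stem cells, was 3.81-fold higher (adjusted p = 0.004866), and Cdx2 was 8.09-fold higher, 3.76-fold without MUT 2 and 13.1-fold without WT 2 (adjusted p = 0.03289), a call lost in 9 of 18 alternatives, among them those omitting WT 1, WT 3, WT 4, MUT 2 or MUT 4. Bmp4 was 27.8-fold lower, 44.8-fold without MUT 4 and 17.2-fold without WT 2 (adjusted p = 0.01007), a call lost with voom, and Esrrb, with 0 reads in MUT and 5.01 to 109 FPKM in WT, was lower (adjusted p = 0.001678). Of 8 labyrinth syncytiotrophoblast genes, 5 were tested and 2 were lower (median −0.27), with 707 to 1185 RPM in MUT and 1298 to 1642 in WT. Slc16a3, a lactate transporter, was 2.19-fold lower (adjusted p = 0.005387) and Ly6e was 2.41-fold lower (adjusted p = 0.04787), a call lost in 13 of 18 alternatives. Synb was at 0 reads in both groups and Gcm1 in MUT.

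Endoderm, epiblast, decidual and blood genes were measured in the same outgrowths, where 18% of all genes tested were called higher and 19.9% lower. Of 8 visceral endoderm genes tested, 8 were lower in MUT (median −4.36), with a summed level of 5.17 to 19.3 RPM in MUT and 240 to 1102 in WT, and Apob was at 0 in MUT. Of 10 parietal endoderm genes, 7 were lower (160 to 460 RPM in MUT, 750 to 1389 in WT), and of 9 primitive endoderm genes tested, 4 were lower (92.0 to 1017 in MUT, 248 to 998 in WT). Of 5 epiblast genes tested, 1 was higher and 2 were lower (1438 to 3379 in MUT, 349 to 664 in WT), the higher one being Dppa5a at 8076 ± 3608 FPKM in MUT and 898 ± 545 FPKM in WT. Of 3 decidual genes tested, 1 was higher and 2 were lower (178 to 241 in MUT, 46.6 to 79.2 in WT). The higher one was Cryab, a small heat shock protein gene that is not restricted to the decidua, at 448 ± 66.4 FPKM in MUT and 61.3 ± 26.1 FPKM in WT (SD, n = 4 each). Of 2 blood genes tested Cd68 (adjusted p = 0.09601) and Csf1r (adjusted p = 0.2811) did not pass (7.72 to 16.8 in MUT, 7.68 to 25.5 in WT). Their part in the members' differences was not tested.

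The 5 genes most like the mean of the 4 tested members, by Pearson correlation of log2(FPKM + 1) over the 11 outgrowth libraries, were Pus7 (r = 0.94), Dbf4 (0.91), Igsf8 (0.87), Atp2a2 (0.86) and Lig3 (0.85). This mean runs over genes that moved in opposite directions, so the genes most like Cts7 and like Ctsll3 were added after the values were seen. Among the genes nearest to Cts7 were Hmgn2, Mybbp1a, Il1r2 and Mif (r = 0.992 to 0.995). Il1r2, a decoy receptor for interleukin 1, was at 1.33 to 4.47 FPKM in MUT, 89.9 to 109 FPKM in HET and 99.0 to 124 FPKM in WT. Nearest to Ctsll3 were Myl4 (0.99), Slc1a1 (0.96), Slc6a14 (0.96), Tspan8 (0.95) and Fhip1a (0.95). Myl4, a myosin light chain, was at 1017, 932, 766 and 778 FPKM in MUT 1 to 4, at 63.6, 54.3 and 17.7 FPKM in HET and at 129, 10.2, 233 and 9.67 FPKM in WT. Slc1a1, a glutamate transporter, was at 1039, 2068, 1558 and 2661 FPKM in MUT, at 40.2, 65.1 and 8.30 FPKM in HET and at 198, 18.2, 549 and 12.6 FPKM in WT. Like Ctsll3 and BC051665, both were highest among WT in WT 3 and then WT 1. Both were picked by their correlation with Ctsll3 over these same libraries, so this shared order largely follows from the choice. These correlations describe 11 libraries that differ mainly by genotype, and 37.9% of genes differed between MUT and WT.

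Across WT embryos the cluster was silent or nearly so at E3.5, highest in outgrowths and low at E6.5. The sets were normalized separately and differ in line, so RPM are given side by side without a test. In WT blastocysts Cts7, Cts8 and Ctsq had 0 reads in all 12 libraries. Ctsll3 had 14 and 5 reads in Taf13 WT 1 and WT 2 and 1 read in Taf12 WT 1, and Ctsj, Ctsr, Cts6, Ctsm and Cts3 had 0. In WT outgrowths Cts7 was at 2733 ± 631 RPM, Cts8 at 56.5 ± 10.2, Ctsq at 2.87 ± 1.40 and Ctsll3 at 4.42 to 1081 (SD, n = 4). In E6.5 WT embryos Cts7 was at 1.20 to 77.8 and Cts8 at 0 to 3.16 RPM. Ctsq and Ctsll3 had 0 reads in all 4 of them, and Ctsj had 9 reads in WT 3.

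**Figure D4:**
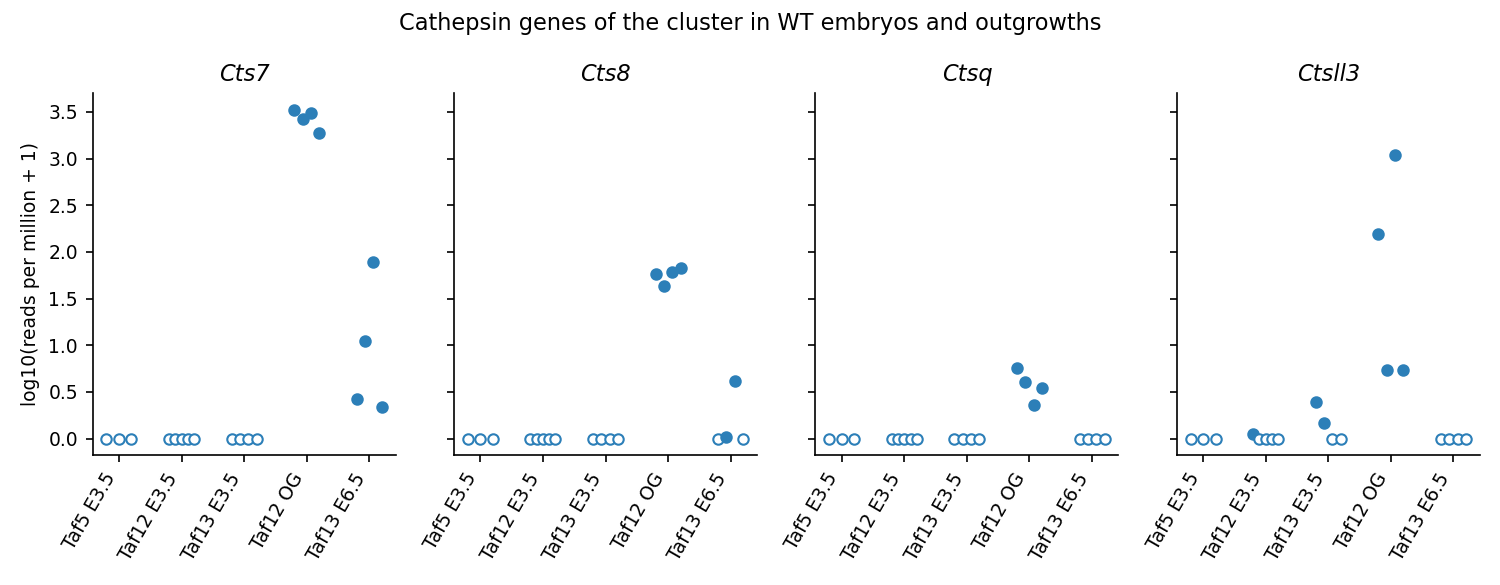
RPM of the 4 members tested in outgrowths, as log10(RPM + 1), in every WT library of the 5 sets, with libraries at 0 as open circles. Cts7 is at 0 in all E3.5 libraries, at 1883 to 3312 RPM in outgrowths and at 1.20 to 77.8 at E6.5, and Ctsll3 has reads at E3.5 but none at E6.5.

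In blastocysts labelled MUT the cluster was as quiet as in WT, and no member reached FPKM 1 in enough E3.5 libraries to be tested. Taf5 was listed at 0 FPKM in the 4 Taf5 blastocysts labelled MUT and at 13.2 to 51.9 FPKM in WT. In Taf5 blastocysts all 9 members had 0 reads in all 7 libraries. In the Taf12 line 5 reads fell on members, 2 for Ctsq in HET 3, 2 for Ctsll3 in HET 1 and the 1 for Ctsll3 in WT 1. In the Taf13 line 20 reads fell on members, 1 of them for Ctsm in MUT 2 and 19 for Ctsll3 in WT. Differences below 0.249 to 0.384 RPM, the level of 3 reads, were not detectable at this depth.

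The targeted gene Taf13 was at 27.1 and 34.3 FPKM in the E6.5 embryos labelled MUT, 17.1 to 42.4 FPKM in HET and 25.01 to 47.5 FPKM in WT, so its level does not check these labels. Mitochondrially encoded transcripts took 0.382 and 1.12% of reads in MUT, 0.0994 to 0.504% in HET and 0.108 to 0.531% in WT. At E6.5 Cts7 was the only member tested, and its level varied more between embryos of 1 genotype than between genotypes. It had 235 and 151 reads in the 2 MUT embryos, which is 3.499 and 2.27 FPKM. It was at 0.107 to 9.59 FPKM in HET, with a median of 0.328, and at 0.505, 3.43, 29.3 and 0.381 FPKM in WT 1 to 4. Both MUT embryos lay within the HET and WT ranges. The log2 difference was −0.09 between MUT and WT (SE 1.12, adjusted p = 0.9679) and −0.93 between HET and WT (SE 0.78, adjusted p = 1). Without WT 3 these were 0.87 (adjusted p = 0.5662) and 0.03 (adjusted p = 0.9947), so the direction turned with that embryo. By limma 0 of 1 members were called in either comparison, with 0 at an unadjusted p under 0.05 and 0 by voom. Over all 14417 genes tested, 13% were called between MUT and WT and 0% between HET and WT (174 at an unadjusted p under 0.05, 0 by voom).

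Cts8 at E6.5 had 25 and 13 reads in the MUT embryos, 5 and 25 reads in HET 8 and HET 9 and 0 in the other HET embryos, and 0, 1, 66 and 0 reads in WT 1 to 4. HET 7, with 201 reads of Cts7, had none of Cts8. Levels of other tissues differed between these embryos too. The trophoblast giant cell list summed to 175 and 442 RPM in MUT, 147 to 435 in HET and 153 to 615 in WT. The decidua and uterine stroma list summed to 1142 and 1989 RPM in MUT, 22.9 to 733 in HET and 60.5, 134, 1328 and 68.5 in WT 1 to 4. This list does not mark maternal tissue alone. In outgrowths, which are cultured blastocysts, it summed to 178 to 241 RPM in Taf12 MUT and 46.6 to 79.2 in WT. WT 3, highest for Cts7, was also highest for the giant cell list and highest among WT for the decidual list. HET 1, lowest for Cts7 at 0.339 RPM, was lowest for both lists. Their part in the spread of Cts7 was not tested.

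**Figure D5:**
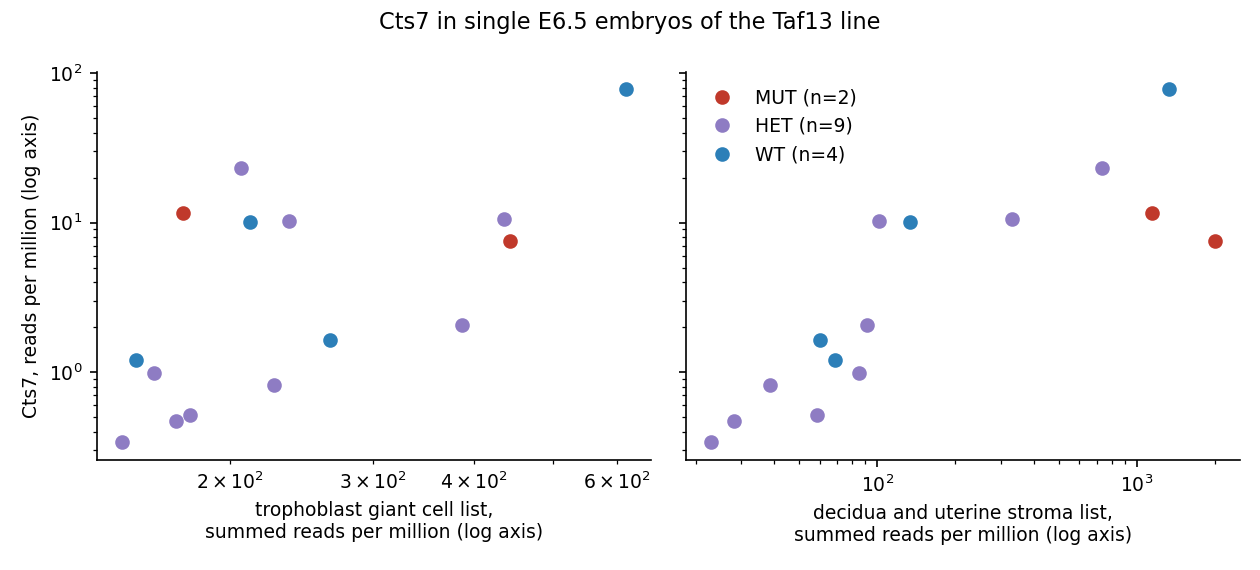
Cts7 in each E6.5 embryo of the Taf13 line in RPM against the summed level of the trophoblast giant cell list (left) and of the decidua and uterine stroma list (right), all on log axes. Cts7 runs from 0.339 in HET 1 to 77.8 in WT 3, and the MUT embryos, at 11.6 and 7.48, lie at 1142 and 1989 RPM of the decidual list.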

How the data were processed

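Libraries were made with a low-input RNA kit and sequenced as 76-base paired ends, per the labels' protocols. The submitters' processing notes name STAR 2.7.6a, DESeq2 1.36.0, R 4.2.1, FastQC 0.11.9 and Trimmomatic 0.39, and the build GRCm39. How reads were counted, and with which strand setting, is not given in the sources used here. Deposited were the authors' FPKM for 56557 genes in 57 libraries, and a table of MUT against WT (Taf5) or WT and HET together (others) with the authors' log2 fold changes, standard errors and p-values. Each of the 5 sets was normalized separately by the authors, as a constant factor between sets in the authors' mean normalized count per FPKM showed.

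Reads were recovered from FPKM steps. Of values up to 500 reads, at least 99.8% were whole within 0.05 reads in every library. RPM values are relative to these recovered reads. Limma 3.58.1 in R 4.3.3 was run per set on log2(FPKM + 1) with a trend and robust moderation, two-sided, over genes that reached FPKM 1 in at least the number of libraries of the smallest group. The test was tried on simulated data first. Genes were called at 0.05 after Benjamini-Hochberg adjustment, whatever their fold, and folds are ratios of mean FPKM. Intervals and floors (3 reads) cover counting error only.

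All 9 members are named. From the cathepsin, inhibitor, neighbour and trophoblast lists, up to 4 called genes with the smallest p were named, or 2 where none was called, and the 5 genes with the highest correlation with the members' mean. Lgmn, Psap, Dppa5a, Cryab, Cd68 and Csf1r were named after their values were seen. The members, lists and tests were chosen with earlier results of these data known. The labels do not say whether replicate numbers pair libraries, and the main fits used no pairing. Same-number libraries, as deviations from their group means, correlated at −0.08 to 0.04 in outgrowths. The values were −0.12 to 0.25 in Taf12 blastocysts and −0.44 to 0.38 at E6.5. Whether litters were shared is not known. Alternatives were a pseudocount of 0.1, no filter, each library left out, a replicate block, voom, equal medians, WT and MUT only, and WT with HET. Python 3.11.15 and Biopython 1.88 served the sequence comparisons.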

Additional observations from a re-analysis of the deposited data

Results flagged for a closer look

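In groups of 4 to 10 libraries, 1 member value lay apart from its group in the following cases, by the gap to the nearest library relative to the group's range. The rule was set to flag about 5% of groups by chance, and 21 groups were looked at. That rate does not hold where all other libraries of a group are at 0, since any value above 0 is then flagged. It was not checked for these FPKM values, so the number of flags is not read as an excess. Ctsll3 in outgrowth WT 3 was at 6867 FPKM (11882 reads). At E6.5, Cts7 in WT 3 was at 29.3 FPKM and in HET 8 at 9.59 FPKM, and Cts8 was at 1.13 FPKM in WT 3 (66 reads) and 0.392 FPKM in HET 9 (25 reads). Ctsj stood out in outgrowth MUT 1 at 4.79 FPKM (9 reads), in outgrowth WT 4 at 8.67 FPKM (17 reads) and in E6.5 WT 3 at 2.64 FPKM (9 reads), with all other libraries of those groups at 0. The remaining cases rest on 1 or 2 reads, Cts6 in outgrowth MUT 2 at 0.0721 FPKM, and in Taf12 blastocysts Ctsq in HET 3 at 0.491 FPKM and Ctsll3 in HET 1 at 1.54 FPKM and in WT 1 at 0.751 FPKM.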

How the results depend on the processing

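The calls of Cts7, Cts8 and Ctsll3 in MUT against WT outgrowths kept their direction and side of the threshold under all 18 alternatives, with log2 differences of −13.3 to −9.40, −5.13 to −2.98 and 5.11 to 7.75. The number of members higher in MUT than WT was 1 to 2 with a library left out, 2 without MUT 2, which adds Ctsq (3.12, adjusted p = 0.001281, against 0.1837 to 0.8513 in alternatives that omit no single library). Between MUT and HET it was 0 without the filter, where Ctsll3 was at 5.98 (adjusted p = 0.06641), and 0 to 2 with a library left out. The numbers of the labels gave same-number correlations of −0.08 to 0.04 in outgrowths, with no sign of pairing there. The replicate block changed the genes called between MUT and WT to 4532, from 4956 without it, and changed no call of a member. Differences between HET and WT outgrowths changed sign for Cts7, Ctsll3 and Ctsq in some alternatives, and for Cts8 in 0 of 15. With the replicate block Ctsq was at 0.10 and Ctsll3 at −0.32, and with a library left out Cts7 reached −0.23 to 0.22 and Ctsll3 −0.87 to 1.77. At E6.5, Cts7 in MUT against WT was 0.32 with a pseudocount of 0.1, 0.18 with the replicate block, 0.53 with voom and −0.61 to 0.87 with a library left out, and in HET against WT −1.45 to 0.0307 with a library left out. Of 27 companion genes, 463 of 486 values kept direction and call, 23 lost the call (Cdx2, Ly6e and Bmp4) and 0 reversed. The cause of these changes was not tested.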
